A study of Mus musculus with 6 samples.

Results

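The genes described here are the interferon-stimulated genes, guanylate-binding proteins (GBPs), interferon regulatory factors (IRFs) and signal transducers and activators of transcription (STATs) measured in mouse CMT93 spheroids. They were chosen by patterns of gene symbols, drawn up with earlier results of these data known, and the patterns found 76 of the 23399 genes in the count table. The 3 samples with palmitate had 200 µM of this saturated fatty acid, bound to bovine serum albumin (BSA), in the medium, and the 3 with vehicle had the same volume of ethanol with BSA. Both groups were wild-type CMT93, one established colorectal cancer line, and each was kept in its medium for 1 week as a monolayer and then for 5 days on soft agar with a little Matrigel. Such cultures hold tumour cells with no immune system around them, and the labels leave unsaid whether samples of a group came from separate cultures. Each p-value therefore reflects just the spread among these 6 samples, which may be technical.

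Interferons are secreted proteins that warn cells of infection. Type I interferons bind the IFNAR receptor and type II interferon binds IFNGR; both activate Janus kinases, which phosphorylate STAT proteins, and STATs and IRFs then switch on a shared set of genes through short promoter elements. The products of these genes sense foreign nucleic acid, block viral replication and, in the case of the GBPs, coat vacuoles of intracellular microbes. Intestinal epithelium, from which this line derives, is known to express many of them at a basal level.

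Library totals lay between 22.5 and 22.9 M counts with palmitate and between 18.9 and 21.9 M with vehicle, so every palmitate library was deeper. Levels are given as CPM (counts scaled to a common library size) after TMM scaling. Epithelial markers such as Epcam, Krt8 and Cdh1 summed to 6798 to 6895 CPM with palmitate and 7413 to 7488 CPM with vehicle over 9 genes. Krt8, Krt18, Cdh1, Epcam and Vil1 had lower means with palmitate, and Krt19, Cldn7, Cdx2 and Krt20 had higher ones. The largest gaps in CPM were in Krt18 (1079 with palmitate, 1445 with vehicle) and Krt8 (1438 with palmitate, 1702 with vehicle). Of 11 leukocyte markers, 6 were in the count table. They summed to 55.8 to 61.7 CPM with palmitate and 55.94 to 60.04 CPM with vehicle, nearly all of it Cd14, while Cd79a, Itgam and Lyz2 were below 0.1 CPM. Of 7 fibroblast markers, 4 were in the table and summed to 0.976 to 1.10 CPM with palmitate and 1.339 to 2.047 CPM with vehicle. The 5 endothelial markers summed to 2.22 to 2.69 CPM with palmitate and 3.28 to 3.74 CPM with vehicle.

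Spheroids grown with palmitate had less message for the GBPs, for the nucleic acid sensor Zbp1, for the adaptor Sting1 and for the interferon brake Usp18. They had more for Stat3, Stat5a, Irf2, the RNA sensor Ifih1 and the paired antiviral genes Oas1a and Oas1g. Isg15, Irf7 and Ifit1 were low in level and were not called. Of the 76 genes, 60 had enough counts to be tested and 16 did not. A gene was called where its adjusted p was under 0.05 (edgeR quasi-likelihood test, two-sided, Benjamini-Hochberg over all 14987 tested genes). By this rule 35 of the 60 were called, 13 higher and 22 lower with palmitate, beside 52.8% of all tested genes called, 27.4% higher and 25.4% lower. The share called, 58.3%, was thus close to that of all genes. The share called lower was 36.7% and the share called higher 21.7%. Of the 53 tested genes other than GBPs, 52.8% were called, 24.5% higher and 28.3% lower. Of the 22 called lower, 6 (Gbp3, Gbp5, Gbp7, Oas2, Ifi203 and Ifi27l2a) reached the level of the count filter, 0.451 CPM, in all libraries of the vehicle group only, so they were tested through the group where they are high and their direction is no support.

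The log2 fold change had a median size of 0.34 over the 60 genes, 0.23 over those other than GBPs and 0.15 over all tested genes. Called differences of at least 2-fold were seen in 8 genes that were lower (Gbp2, Gbp3, Gbp4, Gbp5, Gbp7, Gbp8, Sting1 and Zbp1) and in 2 that were higher (Oas1a and Oas1g), beside 4.51% of all tested genes by that rule, 2.82% lower and 1.69% higher. Of the 8, Gbp3, Gbp5 and Gbp7 were tested through the vehicle group only, so their direction is no support. Against a minimum fold of 1.2 (edgeR glmTreat), 13 stayed lower and 6 stayed higher, beside 15.2% of all tested genes called in that way, 8.72% lower and 6.46% higher. All 3 libraries of one group lay beyond all 3 of the other for 39 of the 60, beside 57.8% of all tested genes. The median of 0.34, the 13 and the 39 also include Gbp3, Gbp5 and Gbp7.

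**Figure D1:**
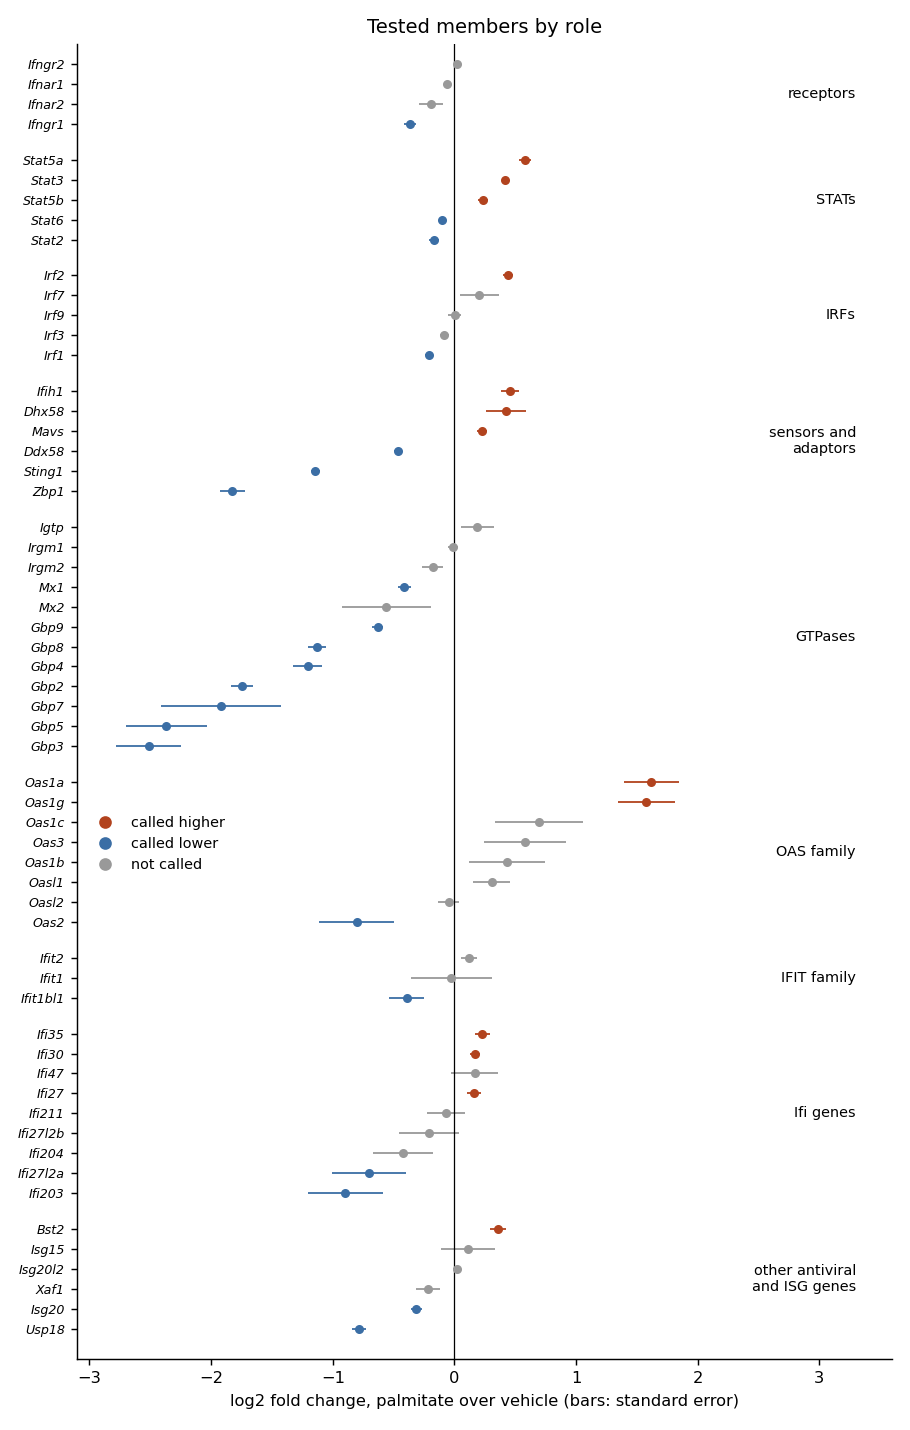
Log2 fold change of palmitate over vehicle for the tested genes, arranged by role, with the standard error as a horizontal bar; colour shows whether a gene was called. The 7 tested GBPs lie on the left, between -0.63 and -2.51, and Oas1a and Oas1g lie farthest to the right.

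**Figure D2:**
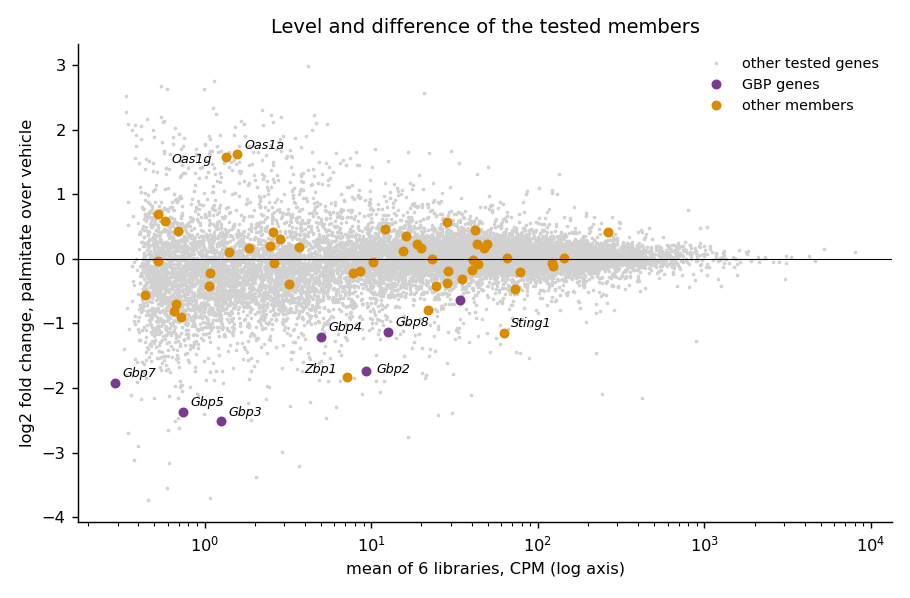
Log2 fold change of palmitate over vehicle against the mean level over 6 libraries (CPM, log axis), with coloured points for the GBPs and the other genes of the plot by role, and 1 grey point for each remaining tested gene. Genes of at least 2-fold are named; Sting1 is the most abundant of them.

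Of 4 tested receptor genes, 1 was called, Ifngr1, which was lower, beside 52.8% of all tested genes called and 25.4% called lower. The type I receptor chain gene Ifnar1 had 119, 120 and 115 CPM with palmitate, against 121, 122 and 127 CPM with vehicle (log2 fold change -0.06, 95% interval -0.11 to -0.01, adjusted p = 0.0507, edgeR). Its partner Ifnar2 had 23.9, 27.8 and 29.3 CPM with palmitate, against 32.1, 27.0 and 33.6 CPM with vehicle (log2 fold change -0.19, 95% interval -0.42 to 0.03, adjusted p = 0.139, edgeR). Neither was called, and the Ifnar2 libraries of the groups overlapped. Ifnar2 was called lower without the count filter (edgeR adjusted p = 0.00119), with the replicate number as a block (0.000387), without vehicle replicate 2 (4.53e-05) and without palmitate replicate 3 (0.0223), and leaving out single libraries gave log2 fold changes of -0.29 to -0.11. Of the type II receptor, the ligand-binding chain gene Ifngr1 fell, with 23.3, 25.6 and 25.6 CPM with palmitate, against 31.8, 31.8 and 32.7 CPM with vehicle (log2 fold change -0.37 with SE 0.0492, edgeR adjusted p = 4.88e-10). The second chain gene Ifngr2, with 143, 148 and 143 CPM in palmitate libraries and 141, 142 and 145 CPM in vehicle libraries, had a log2 fold change of 0.02 (95% interval -0.03 to 0.07). The chain of the type III receptor, Ifnlr1, had 13 counts over the palmitate libraries and 9 over the vehicle libraries and was not tested.

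STAT genes moved in both directions. Stat3, which carries signals of the interleukin 6 family, had 303, 302 and 303 CPM with palmitate, against 222, 232 and 228 CPM with vehicle (log2 fold change 0.41 with SE 0.0196, edgeR adjusted p = 5.27e-33). Stat5a, which acts below growth hormone and cytokine receptors, had 35.1, 33.3 and 34.5 CPM with palmitate, against 22.8, 23.02 and 23.1 CPM with vehicle (log2 fold change 0.58 with SE 0.0488, edgeR adjusted p = 3.82e-18). Its paralogue Stat5b rose less, to 53.5 ± 2.41 CPM with palmitate, against 45.5 ± 1.12 CPM with vehicle (SD, n = 3 each; log2 fold change 0.23). In all 3 genes every palmitate library was above every vehicle library, but the call of Stat5b did not hold against a minimum fold of 1.2. The messages of Stat3 and Stat5a overlap on opposite strands over 72 exon bases in GENCODE M21, about 1% of either gene. Of the 50-base windows of the longest Stat5a and Stat5b transcripts, 10.8% and 11.8% occur in another gene. For each this is most often the other, so the counts of Stat5a and Stat5b are uncertain.

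Stat2 and Stat6 went the other way. Stat2, part of the type I complex, fell, with 36.8, 37.8 and 38.5 CPM with palmitate, against 40.9, 43.9 and 42.0 CPM with vehicle (log2 fold change -0.17, edgeR adjusted p = 0.000536). Stat6, which answers interleukin 4 and 13, had 118, 116 and 122 CPM with palmitate, against 125, 129 and 129 CPM with vehicle (log2 fold change -0.11, edgeR adjusted p = 0.000312). The differences of Stat2 and Stat6 were called, but not against a minimum fold of 1.2. Stat4, a STAT of lymphocytes, was not tested, with 33 counts over the palmitate libraries and 19 over the vehicle libraries.

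Among IRFs, Irf2 rose, to 48.4 ± 1.93 CPM with palmitate, against 35.6 ± 0.491 CPM with vehicle (SD, n = 3 each; log2 fold change 0.44 with SE 0.0414, edgeR adjusted p = 4.78e-16). Irf2 is known as a competitor of Irf1 at shared promoter elements. Irf1 itself fell, with 75.5, 69.4 and 73.5 CPM with palmitate, against 81.2, 85.7 and 85.4 CPM with vehicle (log2 fold change -0.21 with SE 0.0321, edgeR adjusted p = 3.08e-08). The groups did not overlap for either gene.

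The IRFs that act at the start of a type I response or in its STAT complex were not called. Irf3, the constitutive factor below the nucleic acid sensors, had 44.1, 42.8 and 41.1 CPM with palmitate, against 45.2, 44.3 and 46.0 CPM with vehicle (log2 fold change -0.08, edgeR adjusted p = 0.0785). Irf7, its inducible relative, had 2.595, 2.57 and 2.73 CPM with palmitate, against 2.11, 2.41 and 2.31 CPM with vehicle (log2 fold change 0.21, 95% interval -0.12 to 0.53, adjusted p = 0.298, edgeR). Irf9, which joins STAT proteins in the type I complex, had 23.5, 23.2 and 22.4 CPM with palmitate, against 23.3, 23.3 and 22.5 CPM with vehicle, and its 95% interval of -0.11 to 0.11 on the log2 scale bounds any difference. Irf5 and Irf8, factors of immune cells, had at most 21 counts over the 3 libraries of either group and were not tested.

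**Figure D3:**
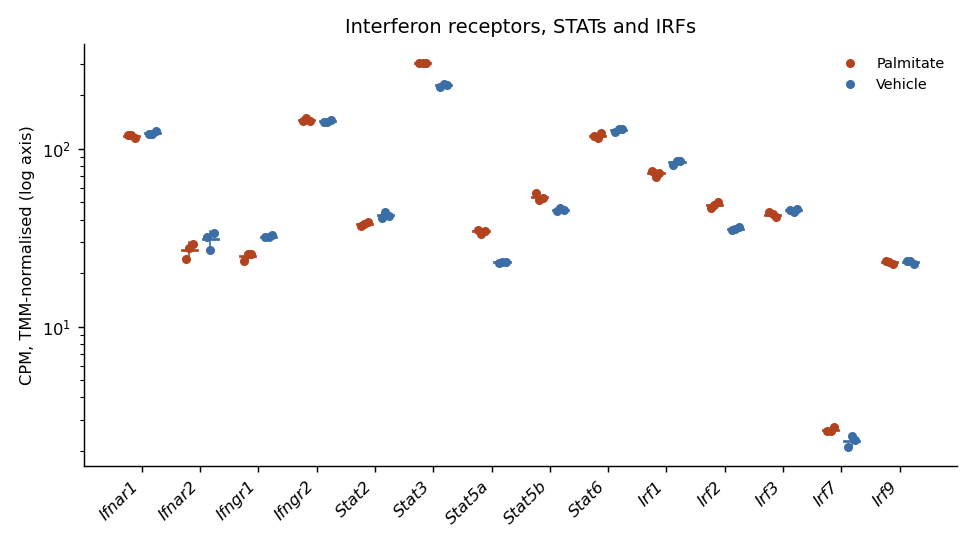
Level of receptor genes and of STAT and IRF genes described here in each library (CPM, log axis), palmitate left of vehicle, with group means as horizontal lines and the SD as vertical lines. Stat3, Stat5a, Stat5b and Irf2 lie higher with palmitate, and Irf9 and Ifngr2 overlap between groups.

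All 6 tested sensors and adaptors of nucleic acid detection were called, 3 lower and 3 higher, beside 52.8% of all tested genes called, 25.4% lower and 27.4% higher. Sting1 (ENSMUSG00000024349.11), which encodes the adaptor that relays cyclic GMP-AMP from the DNA sensor cGAS, had 39.6, 37.8 and 39.4 CPM with palmitate, against 84.1, 85.9 and 88.2 CPM with vehicle (2.21-fold lower; log2 fold change -1.14 with SE 0.0356, edgeR adjusted p = 5.49e-46). Zbp1, which senses Z-form nucleic acid and can start necroptosis, had 3.31, 3.46 and 2.69 CPM with palmitate, against 11.4, 11.4 and 10.8 CPM with vehicle (3.54-fold lower; log2 fold change -1.82 with SE 0.105, edgeR adjusted p = 1.31e-27). Both groups were tight and far apart for these genes. Cgas, the DNA sensor itself, had 0 counts in each palmitate library and 1, 0 and 2 counts in the vehicle libraries, so its message was at the limit of detection in both groups and no fold is given.

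The RNA sensors parted. Ddx58, which encodes RIG-I, fell, with 61.4, 60.3 and 61.9 CPM with palmitate, against 79.0, 86.3 and 87.7 CPM with vehicle (log2 fold change -0.47 with SE 0.0336, edgeR adjusted p = 1.42e-21). Ifih1, which encodes MDA5, rose, with 13.6, 13.9 and 14.4 CPM with palmitate, against 9.32, 10.4 and 10.8 CPM with vehicle (log2 fold change 0.46 with SE 0.0741, edgeR adjusted p = 1.33e-07). Mavs, the mitochondrial adaptor that both sensors use, rose by less, with 46.0, 44.9 and 49.1 CPM with palmitate, against 41.8, 37.3 and 40.6 CPM with vehicle (log2 fold change 0.23 with SE 0.0422, edgeR adjusted p = 3.23e-06). For none of these 3 genes did the groups overlap, and the call of Mavs did not hold against a minimum fold of 1.2. Dhx58, which encodes the related helicase LGP2, had 2.96 ± 0.690 CPM with palmitate and 2.21 ± 0.182 CPM with vehicle (SD, n = 3 each). It was called higher (log2 fold change 0.42), but the call was lost with DESeq2, after thinning, and when vehicle replicate 2, vehicle replicate 3 or palmitate replicate 1 was left out.

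The GBPs are large GTPases that assemble on pathogen membranes and are among the most interferon-gamma-inducible genes known. All 7 tested GBPs were called lower, beside 25.4% of all tested genes. However, Gbp3, Gbp5 and Gbp7 passed the count filter through the vehicle libraries alone and so had to be lower. The other 4, Gbp2, Gbp4, Gbp8 and Gbp9, reached the filter level in both groups. Gbp2 (ENSMUSG00000028270.13) had 4.47, 4.08 and 4.18 CPM with palmitate, against 14.6, 13.9 and 14.2 CPM with vehicle (3.35-fold lower; log2 fold change -1.74 with SE 0.0904, edgeR adjusted p = 1.70e-30). Gbp3 (ENSMUSG00000028268.15), scarce with palmitate, had 0.358, 0.399 and 0.352 CPM with palmitate, against 2.21, 1.82 and 2.40 CPM with vehicle (5.71-fold lower; log2 fold change -2.51 with SE 0.264, edgeR adjusted p = 7.84e-14). For both genes each vehicle library was above each palmitate library, and the same held for the other 5.

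Gbp8 had 7.96, 7.41 and 8.32 CPM with palmitate, against 16.2, 18.1 and 17.4 CPM with vehicle (log2 fold change -1.13 with SE 0.0748, edgeR adjusted p = 7.74e-24). Gbp4 had 3.40, 2.88 and 2.77 CPM with palmitate, against 6.21, 7.64 and 6.97 CPM with vehicle (log2 fold change -1.21 with SE 0.122, edgeR adjusted p = 1.44e-14). Gbp9, the most abundant of the family here, had 26.2, 26.5 and 27.3 CPM with palmitate, against 40.0, 42.9 and 40.7 CPM with vehicle (log2 fold change -0.63 with SE 0.0455, edgeR adjusted p = 9.07e-22). Gbp9 had the smallest fold of the 7. Of the 50-base windows of Gbp8 and Gbp4, 18.2% and 12.8% occur in another gene, most often Gbp11, so their counts are uncertain. The scarcer Gbp5 (-2.37) and Gbp7 (-1.92) were also lower, with 16 and 8 counts in all with palmitate, against 78 and 29 with vehicle, and the call of Gbp7 was lost when libraries were thinned to the shallowest. Gbp6 had 10 counts with palmitate and 8 with vehicle and was not tested.

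Summed over all 8 genes, GBP message came to 43.0, 41.8 and 43.2 CPM with palmitate, against 81.1, 86.3 and 83.4 CPM with vehicle. In bulk RNA of this kind, fewer cells that express a gene and less message per cell cannot be told apart. The summed leukocyte markers overlapped between groups. Within that list Ptprc was lower, at 0.266 CPM with palmitate against 0.836 CPM with vehicle (log2 fold change -1.62). Ptprc reached the count filter level in vehicle libraries only, so its direction is no support. Itgam also had a lower mean with palmitate, and Cd14, Csf1r, Cd79a and Lyz2 had higher ones. The summed fibroblast and endothelial markers given above were lower too. Most of the fibroblast sum was Col1a1, and Dcn and Pdgfra had counts with palmitate only. Of the endothelial markers, Cdh5, Tek and Kdr had lower means with palmitate, and Pecam1 and Vwf slightly higher ones. Ptprc and the fibroblast and endothelial markers were scarce beside the summed GBP message, and their part in the result was not tested.

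**Figure D4:**
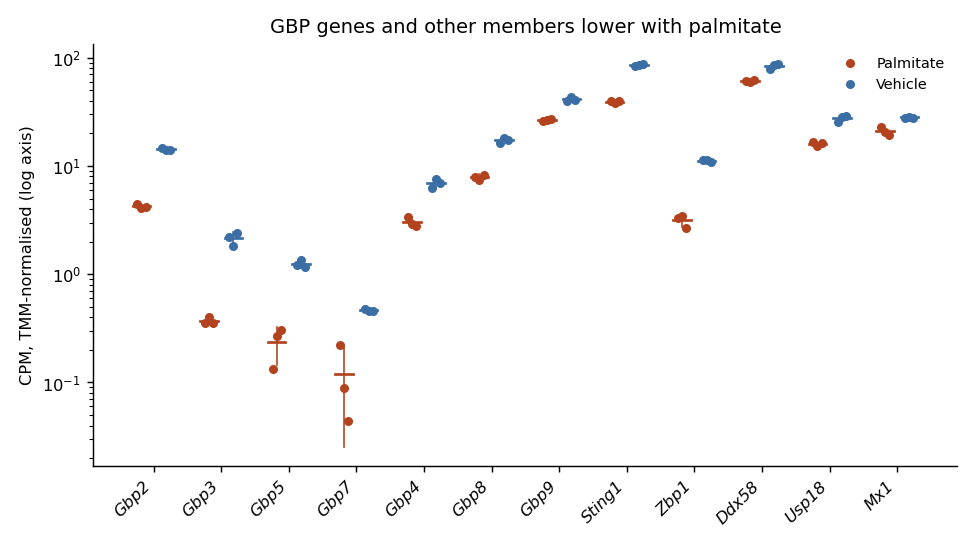
Level of the 7 tested GBPs and of other genes that were called lower, in each library (CPM, log axis), palmitate left of vehicle, with group means as horizontal lines and the SD as vertical lines. In each gene shown the palmitate libraries lie below the vehicle libraries, by the largest ratio in Gbp3 and the smallest in Mx1 and Ddx58.

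In the RefSeq gene order of the earlier assembly GRCm38.p6, GBP genes form a cluster on chromosome 3 and another on chromosome 5. On chromosome 3 the order was Gbp5, Gbp7, Gbp3 and Gbp2, with log2 fold changes between -1.74 and -2.51. Of these, Gbp5, Gbp7 and Gbp3 were tested through the vehicle group only, so their direction is no support. Before the cluster, Pdlim5 had a log2 fold change of -0.22 and was called lower. After it, Kyat3 (-0.35), Gtf2b (-0.03) and Pkn2 (-0.03) were not called, while the scarce transcript 9530052C20Rik (-0.72) was called lower. On chromosome 5 the order was Gbp8, Gbp9, Gbp4 and Gbp6, and the tested ones lay between -0.63 and -1.21. Around them Zfp951 (0.00) and Lrrc8b (-0.03) were not called, Lrrc8c rose (0.34) and Lrrc8d fell (-0.24).

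**Figure D5:**
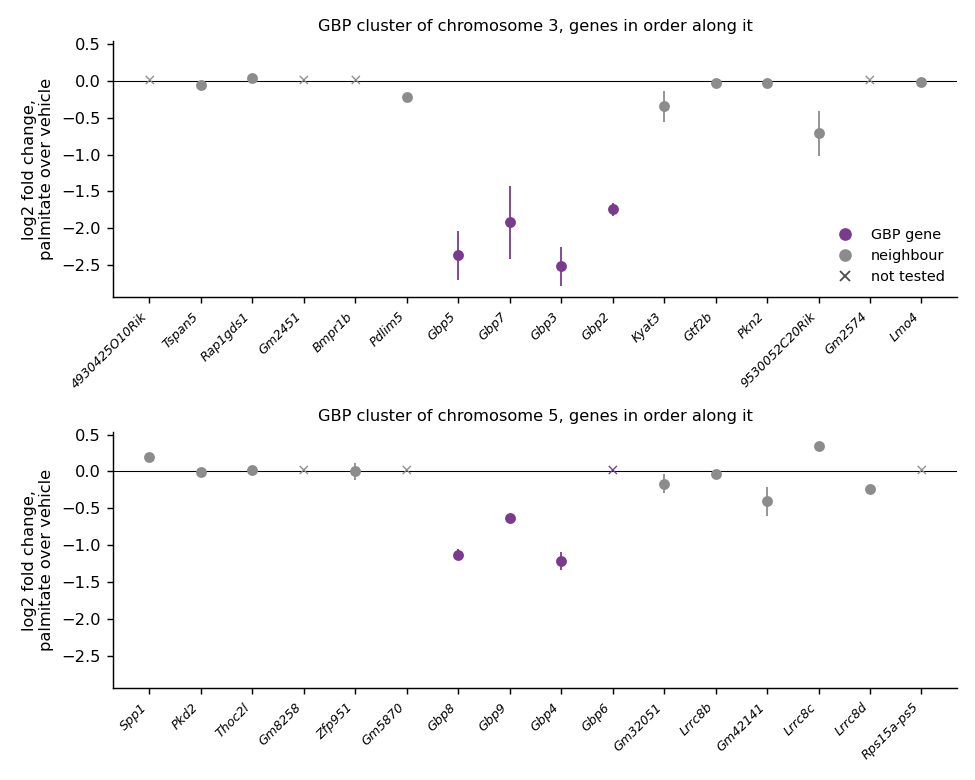
Log2 fold change of palmitate over vehicle, with the standard error, for genes in order along the 2 GBP clusters and 6 genes to each side; positions are ranks, not distances. GBP genes lie between -0.63 and -2.51, and tested neighbours between -0.72 and 0.34. Gbp3, Gbp5 and Gbp7 were tested through the vehicle group only, so their direction is no support.

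Other interferon-inducible GTPases did not follow the GBPs as a group. Mx1, a barrier to influenza-like viruses, fell to 21.1 ± 1.94 CPM with palmitate, against 28.1 ± 0.326 CPM with vehicle (SD, n = 3 each; log2 fold change -0.41, edgeR adjusted p = 2.82e-10). The immunity-related GTPase gene Irgm1, a regulator of autophagy, had 40.9 ± 1.08 CPM with palmitate and 41.3 ± 1.66 CPM with vehicle (SD, n = 3 each; log2 fold change -0.01, 95% interval -0.09 to 0.07). Irgm2, Igtp and Mx2 had log2 fold changes of -0.18, 0.19 and -0.56 and were not called. Iigp1 had 3 counts with palmitate and 8 with vehicle.

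The OAS genes encode enzymes that make short oligoadenylates when they bind double-stranded RNA and thereby activate RNase L. Oas1a had 2.15, 2.75 and 2.20 CPM with palmitate, against 1.001, 0.50 and 0.831 CPM with vehicle (3.07-fold higher; log2 fold change 1.62 with SE 0.224, edgeR adjusted p = 1.67e-09). Oas1g had 2.06, 1.86 and 2.11 CPM with palmitate, against 0.790, 0.637 and 0.60 CPM with vehicle (2.98-fold higher; log2 fold change 1.58 with SE 0.234, edgeR adjusted p = 1.23e-08). Both rose with no overlap between groups. They are near-identical neighbours: 57.6% of the 50-base windows of the longest Oas1a transcript, and 54.7% of those of Oas1g, occurred in a transcript of another gene, for each most often in the other. Reads may have been split between them, so their single values are uncertain. Their sum was 4.21, 4.62 and 4.32 CPM with palmitate, against 1.79, 1.14 and 1.43 CPM with vehicle.

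Among the other OAS genes, Oas2 was tested through the vehicle group only, so its direction is no support. Oas2 was lower, at 0.473 ± 0.0642 CPM with palmitate against 0.830 ± 0.0863 CPM with vehicle (SD, n = 3 each; log2 fold change -0.80, edgeR adjusted p = 0.0232), a call lost with DESeq2 and when vehicle replicate 1, vehicle replicate 2 or palmitate replicate 1 was left out. Oas1b (0.43), Oas1c (0.70), Oas3 (0.58) and Oasl1 (0.30) had positive log2 fold changes that were not called, and Oasl2, at 10.1 ± 1.33 CPM with palmitate and 10.3 ± 1.198 CPM with vehicle, had one of -0.05.

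Promoter sequence was looked up by symbol in RefSeq windows of 300 bases (250 before and 50 after a gene's start, build GRCm38.p6), which matched 56 of the 76 genes. The core of the interferon-stimulated response element (ISRE), searched on both strands as GAAA, any 2 bases and GAAA again, was in 21 of 43 tested genes with a window (48.8%), against 3.48% of all tested genes with a window, where a gene with several windows counted if any held it. Overlapping matches were each counted. By direction, it was in 5 of 11 genes called higher, 8 of 12 called lower and 8 of 20 not called. The 8 called lower include Gbp3, Gbp5, Gbp7 and Ifi203, which were tested through the vehicle group only, so their direction is no support. Gbp4, Gbp8, Gbp9, Sting1, Zbp1 and Usp18 had no window. The gamma-activated site, TTCNNNGAA, which reads the same on both strands, was in 13 of the 43 (30.2%), against 8.15% of all tested genes with a window. The stretches below show that promoters with the same element belonged to genes that were lower, higher and not called. Each runs 5′ to 3′ on the gene's strand, and capitals mark ISRE matches. Gbp2 and Gbp3 were lower:
Gbp2: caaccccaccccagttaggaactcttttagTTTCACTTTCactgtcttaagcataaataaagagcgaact
Gbp3: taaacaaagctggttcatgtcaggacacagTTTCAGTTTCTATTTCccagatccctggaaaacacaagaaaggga
Oas1a, Oas1g and Bst2 were higher:
Oas1a: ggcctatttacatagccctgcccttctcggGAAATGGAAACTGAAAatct
Oas1g: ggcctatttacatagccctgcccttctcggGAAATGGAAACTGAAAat
Bst2: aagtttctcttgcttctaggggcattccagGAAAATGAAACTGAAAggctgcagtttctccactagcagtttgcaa
Isg15 was not called:
Isg15: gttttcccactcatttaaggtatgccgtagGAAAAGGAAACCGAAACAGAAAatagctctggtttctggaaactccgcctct
The Gbp2 stretch lies at chr3:142620574-142620643 and that of Gbp3 at chr3:142559969-142560043, both on the plus strand. Those of Oas1a (chr5:120907526-120907575), Oas1g (chr5:120887614-120887661), Bst2 (chr8:71537557-71537632) and Isg15 (chr4:156200845-156200926) lie on the minus strand. All 6 end before the annotated start site. The Gbp2 and Gbp3 matches are on the strand opposite to the gene. A match describes letters in a window and says nothing of binding in these cells.

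Of IFIT genes, whose proteins bind viral RNA ends, Ifit2 had 16.1 ± 0.693 CPM with palmitate and 14.8 ± 0.805 CPM with vehicle (SD, n = 3 each; log2 fold change 0.12, 95% interval -0.01 to 0.25) and was not called. Ifit1, a common readout of type I interferon, was near the limit of testing, with 10, 12 and 13 counts with palmitate and 11, 11 and 11 with vehicle. Ifit1bl1 was called lower (log2 fold change -0.39), a call lost with DESeq2, after thinning, and when vehicle replicate 2 or either of palmitate replicates 1 and 2 was left out. Ifit3, Ifit3b and Ifit1bl2 were not tested, and Ifit3, the highest of the 3, had 25 counts with palmitate and 22 with vehicle.

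Genes named Ifi share a history of discovery and not a function. Ifi30, a lysosomal thiol reductase of antigen processing, rose slightly, to 50.4 ± 1.81 CPM with palmitate, against 44.9 ± 1.45 CPM with vehicle (SD, n = 3 each; log2 fold change 0.17, edgeR adjusted p = 0.000158). Ifi35 rose (log2 fold change 0.23), and Ifi27 was called higher (0.16) though its groups overlapped and DESeq2 or leaving out any of 4 single libraries ended the call. Neither of these nor Ifi30 was called against a minimum fold of 1.2. Of the Ifi200 genes, a family of DNA-binding proteins, Ifi203 was called lower (-0.90) from 34 counts with palmitate and 59 with vehicle, with overlapping groups and a call lost with DESeq2 and without replicate 3 of either group, and Ifi204 (-0.42) and Ifi211 (-0.07) were not called. Of Ifi211, 72.9% of 50-base windows occur in another gene. Ifi202b, of the same family, had 0 counts with palmitate and 11 with vehicle, so it was at least 4.0-fold lower against a floor of 3 counts over the group. This bound does not allow for counting error in the 11. Ifi202b did not pass the count filter. Without the filter edgeR called it lower, but neither DESeq2 nor the authors' deposited table did. Ifi27l2a was called lower (-0.70), a call lost in 8 alternatives, while Ifi27l2b and Ifi47 were not called. Ifi203 and Ifi27l2a were tested through the vehicle group only, so their direction is no support. Ifi203-ps, Ifi205, Ifi207 and Ifi44 were not tested, and Ifi207, the highest of them, had 25 counts with palmitate and 34 with vehicle.

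The remaining antiviral genes also parted. Usp18, a protease that removes ISG15 from proteins and restrains IFNAR signalling, had 16.5, 15.2 and 16.5 CPM with palmitate, against 25.6, 28.4 and 28.8 CPM with vehicle (1.72-fold lower; log2 fold change -0.79 with SE 0.0569, edgeR adjusted p = 1.05e-21). Isg15, the ubiquitin-like protein it removes, had 1.07, 1.69 and 1.63 CPM with palmitate, against 0.948, 1.64 and 1.43 CPM with vehicle (log2 fold change 0.11, 95% interval -0.33 to 0.55, adjusted p = 0.703, edgeR). Usp18 libraries did not overlap between groups and Isg15 libraries did. Bst2, or tetherin, which holds budding virions at the cell surface, had 18.8, 17.6 and 18.1 CPM with palmitate, against 13.96, 14.2 and 14.3 CPM with vehicle (log2 fold change 0.36 with SE 0.0632, edgeR adjusted p = 1.15e-06). The exonuclease gene Isg20 fell (log2 fold change -0.31), a call that did not hold against a minimum fold of 1.2. Its namesake Isg20l2, a ribosomal RNA processing enzyme caught by the symbol pattern, had a log2 fold change of 0.02. Xaf1 had one of -0.22 (adjusted p = 0.0506, edgeR), and Rsad2, which encodes viperin, had 5 counts with palmitate and 6 with vehicle.

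To compare levels between genes, CPM was divided by the exon length in kilobases from GENCODE M21, matched by identifier for all 76 genes. On this scale the most abundant tested genes were Ifi30, at 51.3 with palmitate and 45.7 with vehicle, and Ifngr2, at 38.4 and 37.9. Sting1 ranked 3 of 60 with vehicle, at 31.4, and 11 of 60 with palmitate, at 14.2. Stat3 ranked 3 with palmitate, at 31.8, and 5 with vehicle, at 23.9. All GBPs were below 8 CPM per kilobase in both groups, and Gbp9 was the highest, at 5.15 with palmitate and 7.97 with vehicle.

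A list of 93 further interferon pathway genes held 81 in the count table and 67 that were tested. Of these 22 were higher, 22 lower and 23 not called, so that 65.7% were called, beside 52.8% of all tested genes (27.4% higher and 25.4% lower). Of 10 genes for Janus kinases and their brakes, 6 were higher, 3 lower and 1 not called, beside 27.4% and 25.4% of all tested genes called higher and lower. Jak2 rose (log2 fold change 0.41), whereas the feedback inhibitors Socs1 (-0.88) and Cish fell. Cish had 6.44, 7.32 and 7.31 CPM with palmitate, against 10.6, 12.1 and 12.4 CPM with vehicle (log2 fold change -0.74 with SE 0.0858, edgeR adjusted p = 3.68e-12). Socs3, another inhibitor of the same family, rose (0.20).

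Of 39 other tested interferon-stimulated genes in that list, 9 were higher, 13 lower and 17 not called, or 56.4% called, beside 52.8% of all tested genes. Parp12, a mono-ADP-ribosyltransferase with antiviral activity, had 14.7, 13.9 and 15.5 CPM with palmitate, against 5.37, 4.87 and 6.09 CPM with vehicle (2.70-fold higher; log2 fold change 1.43 with SE 0.0868, edgeR adjusted p = 3.57e-26). Tap1, a peptide transporter of antigen presentation, had 4.34, 4.97 and 4.32 CPM with palmitate, against 1.37, 2.00 and 2.49 CPM with vehicle (log2 fold change 1.196 with SE 0.154, edgeR adjusted p = 1.97e-10). Both rose without overlap, while the more abundant Lgals9, Slfn2 and Tor1aip1 fell. Lgals9, which encodes a galectin, had 135, 135 and 135 CPM with palmitate, against 195, 187 and 193 CPM with vehicle (log2 fold change -0.50). Slfn2, of the Schlafen family, had 40.2, 39.1 and 40.6 CPM with palmitate, against 61.7, 60.8 and 58.8 CPM with vehicle (log2 fold change -0.60). Tor1aip1, a nuclear membrane protein gene, had 44.2, 46.0 and 44.8 CPM with palmitate, against 65.3, 65.1 and 65.0 CPM with vehicle (log2 fold change -0.53). In all 3 genes each palmitate library was below each vehicle library.

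Message for interferons themselves was scarce. Of the 8 listed ligands and cytokines, 3 were in the count table, and only the cytokine gene Il6 passed the count filter and was called higher (log2 fold change 0.43). Ifne, an epithelial type I interferon, averaged 0.0737 CPM with palmitate and 0.127 CPM with vehicle. Among sensing and signalling genes outside the symbol patterns, 6 were higher, 6 lower and 5 not called, beside 27.4% and 25.4% of all tested genes higher and lower, with Traf6 (0.43) and Traf3 (0.24) higher and Rnf125 (-0.51) and Tlr4 (-0.24) lower, while Tbk1 (-0.01) and Tlr3 (0.01) were not called.

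In the authors' deposited table, all 60 tested genes had a fold change of the same sign as here. Of the 35 genes called here, 28 also had a q-value under 0.05 in the authors' deposited table and 7 did not, among them Dhx58, Ifi27, Ifi203, Ifi27l2a, Ifit1bl1 and Oas2. No gene was called in the authors' deposited table alone.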

How the data were processed

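RNA was sequenced from 6 samples, 3 with palmitate and 3 with vehicle, as stranded poly(A) libraries per the labels' protocols. The submitters' processing notes name STAR 2.6.1, HTSeq, FastQC 0.11.8, DESeq2 1.34.0 and the build mm39. The deposited table holds raw counts per gene. Whether counting used strand, and how reads shared by paralogues were treated, is not stated by any source at hand. Of the 76 genes, 17 share exon bases with a gene on the opposite strand in GENCODE M21, 3 of them (Ifi35, Irf5 and Isg20l2) over more than 10% of their length. The authors' deposited gene table gives DESeq2 log2 fold changes with p-values and q-values. Its ranking score, described with the deposited columns as −log10 p carrying the sign of the change, was not used.

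Counts were tested in edgeR 4.0.16 (R 4.3.3) by glmQLFit with robust estimation and glmQLFTest after TMM and filterByExpr with a minimum count of 10. A standard error is the size of a log2 fold change over the root of its quasi-likelihood F. Members and lists were chosen with earlier results of these data known. Values in every sample are given for called genes of at least 1 CPM and a log2 size of at least 0.5 (up to 6 per role), for a fixed panel, and for up to 6 genes of the further list by the same limits; Gbp5, Gbp7 and other genes outside this rule were chosen after their values were seen. Some genes enter the counts but are not reported here by name. Libraries of one group differed by more than counting noise, so none was taken for a copy. Test code was tried on simulated data. Alternatives tried were DESeq2 1.42.0, glmTreat, DESeq2-type size factors in edgeR, testing without a count filter, the replicate number as a block, thinning every library to the shallowest, and leaving out each library. RefSeq and GENCODE M21 references are of GRCm38, so they were matched by identifier or symbol only. Intervals cover the spread between these libraries.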

Additional observations from a re-analysis of the deposited data

How the results depend on the processing

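The count of GBPs called lower was 7 in each alternative but thinning, which gave 6. Of these, Gbp3, Gbp5 and Gbp7 pass the count filter only through vehicle. Against a minimum fold of 1.2 (glmTreat), 2275 genes were called in place of 7915, with 6 of the 76 genes higher, 13 lower, and 16 further pathway genes called in place of 44. Among the genes that lost their call by that rule were Stat2, Stat5b, Stat6, Irf1, Mavs, Bst2 and Isg20. DESeq2 called 5692 genes in place of 7915, with 11 of the 76 genes higher and 17 lower. Leaving out each library in turn gave 7260 to 7406 genes called, 11 to 15 of the 76 higher, 20 to 23 lower, and 38 to 43 further pathway genes. Whether replicate numbers pair the samples is left unsaid by the labels. Same-numbered libraries deviated with correlations of -0.0045, 0.0085 and 0.0071. These cannot decide it, because libraries of a group differed by little more than counting noise. The fit with a replicate block gave 7933 genes called, with 13 of the 76 higher, 23 lower and 46 further pathway genes. Genes near no difference changed sign without being called. Irf9 had a log2 fold change of -0.002733 with size factors, -0.0001042 with the block and -0.001996 after thinning. With each library left out in turn, Irf9 lay between -0.01886 and 0.02298, and Isg15 between -0.06755 and 0.2909. The sign turned for Irf9 without vehicle replicate 3, palmitate replicate 1 or palmitate replicate 2, and for Isg15 without vehicle replicate 1 or palmitate replicate 2. Ifnar1 was called lower with size factors (adjusted p = 0.0383, edgeR), after thinning, and when vehicle replicate 1, vehicle replicate 2 or palmitate replicate 2 was left out. Irf3 was called lower without palmitate replicate 1, and Ifnar2 with the replicate block (adjusted p = 0.000387, edgeR), without the count filter and without vehicle replicate 2 or palmitate replicate 3. The cause was not tested. The count filter left 16 of the 76 genes untested. Without it edgeR also called Ifi202b lower, a call that DESeq2 did not make.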
